A study of Mus musculus with 12 samples.

Results

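TRBV5 is a variable segment of the mouse T cell receptor (TCR) β chain locus (TRB), the segment called Vβ1 in an older nomenclature. Its chains were followed in CD8+ T cells from spleens of wild-type C57BL/6 mice. Cells were selected on their own TCR reads: a cell is a TRBV5 cell if its TRB contig with the most unique molecular identifiers (UMIs) used TRBV5. This gave 6456 TRBV5 cells of 76281 cells with a TRB chain, or 8.46%, in a table of 100540 cells. They carried 2082 different TRB clonotypes, where a TRB clonotype is a V segment, a J segment and a nucleotide CDR3. In 69 cells of the table a TRBV5 contig and one of another TRBV segment tied for the most UMIs. The contig with more reads was kept, so not all of these need be TRBV5 cells.

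Mice had received anti-CD137 (clone 3H3, 10 µg, 5 mice), an antibody to the costimulatory receptor 4-1BB of activated T cells, or control immunoglobulin (Ig control, clone HRPN, 100 µg, 10 mice), with 2 injections per week for 14 days. From each treatment 3 subsets with high CD44, which marks antigen-experienced T cells, were sorted. Effector cells (Teff) were PD1 negative. Of the PD1+ cells, precursor exhausted ones (Tpex) were positive for Slamf6 and negative for Tim3, and exhausted ones (Tex) the reverse. Each of the 6 populations was 1 pair of a gene expression and a TCR library with no tie from cells to single mice, so no test was run, and a difference between treatments cannot be told apart from a difference between mice or pools. Gene expression values and marker genes were not analysed here, so the sort labels were not checked against markers, and clusters are named by the authors' numbers.

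A TCR is made of an α chain (TRA, joined from TRAV and TRAJ segments) and a β chain (TRB, joined from TRBV, TRBD and TRBJ segments). Bases are trimmed from the segment ends and others are added without a template at the joints, so the CDR3, the loop that spans the joint and mostly touches the presented peptide, differs from clone to clone. T cells that descend from the same rearranged cell carry the same nucleotide CDR3. An expanded clone therefore adds many cells but only 1 TRB clonotype, and shares are given below in both ways.

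TRBV5 lies on chromosome 6, plus strand, at 41062332 to 41062803 in GRCm38 (mm10), per the GENCODE M21 annotation. Exon 1 spans 41062332 to 41062407 and begins with an annotated UTR that ends at 41062358, and exon 2 spans 41062512 to 41062803. The coding segment contributes its last 17 bases to the CDR3, and codon 5, shown in capitals, encodes glutamine. The largest TRBV5 clones are printed with it because each adds many cells to the shares by cells. In these CDR3s lower case marks bases that match the germline end of TRBV5 or of the J segment, and capitals mark the bases between, which hold the D segment and added bases.
TRBV5 germline end, codon 5 in capitals: tgtgccagcagcCAAga
CD137 clone a, TRBJ1-5: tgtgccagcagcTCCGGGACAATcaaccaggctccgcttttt
CD137 clone b, TRBJ1-4: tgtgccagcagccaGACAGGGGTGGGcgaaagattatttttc
CD137 clone c, TRBJ2-7: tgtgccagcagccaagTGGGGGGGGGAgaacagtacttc
Ig clone a, TRBJ2-3: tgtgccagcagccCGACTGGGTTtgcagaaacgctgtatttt
Ig clone b, TRBJ2-1: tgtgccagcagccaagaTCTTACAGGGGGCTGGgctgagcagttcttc
Ig clone c, TRBJ1-3: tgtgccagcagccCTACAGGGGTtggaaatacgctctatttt
Ig clone d, TRBJ1-4: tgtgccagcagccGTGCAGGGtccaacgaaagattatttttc

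A second group of sequences is shown because different nucleotide CDR3s encoded the same amino acids. In the first set below, 6 nucleotide sequences of TRBV5 and TRBJ2-3 encode a single protein CDR3 whose joint reads glutamine, valine and glycine. In the second set, 4 nucleotide sequences of TRBV5 and TRBJ2-1 encode a joint of glutamine, glycine, threonine and glycine. Capitals again mark bases that match neither germline end.
TRBJ2-3 set, sequence 1: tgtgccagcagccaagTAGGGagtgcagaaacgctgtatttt
TRBJ2-3 set, sequence 2: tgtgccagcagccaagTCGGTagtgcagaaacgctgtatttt
TRBJ2-3 set, sequence 3: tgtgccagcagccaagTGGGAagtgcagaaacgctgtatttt
TRBJ2-3 set, sequence 4: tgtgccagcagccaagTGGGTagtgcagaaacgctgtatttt
TRBJ2-3 set, sequence 5: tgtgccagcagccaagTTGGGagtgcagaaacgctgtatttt
TRBJ2-3 set, sequence 6: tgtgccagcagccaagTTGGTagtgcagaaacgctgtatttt
TRBJ2-1 set, sequence 1: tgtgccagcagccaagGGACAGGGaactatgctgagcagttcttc
TRBJ2-1 set, sequence 2: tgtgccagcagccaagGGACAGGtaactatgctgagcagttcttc
TRBJ2-1 set, sequence 3: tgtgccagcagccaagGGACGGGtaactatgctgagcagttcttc
TRBJ2-1 set, sequence 4: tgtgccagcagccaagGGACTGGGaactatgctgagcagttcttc

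By cells, TRBV5 was a mid-ranking segment in Teff, and it was the most used segment in Tex of both treatments and in Ig control Tpex. In Teff it was used by 907 of 24035 anti-CD137 cells (3.77%, 95% interval 3.54% to 4.02%) and by 824 of 20596 Ig control cells (4.0%, 3.74% to 4.28%). In Tpex it was used by 240 of 5980 anti-CD137 cells (4.01%, 3.53% to 4.54%) and by 1581 of 11258 Ig control cells (14.0%, 13.4% to 14.7%). In Tex it was used by 530 of 5837 anti-CD137 cells (9.08%, 8.35% to 9.85%) and by 2374 of 8575 Ig control cells (27.7%, 26.7% to 28.6%). Among 22 segments it ranked 14 in anti-CD137 Teff, 13 in Ig control Teff, 15 in anti-CD137 Tpex, and first in the other libraries. In anti-CD137 Tex the lead was narrow, with TRBV19 next at 9.05%, and in Ig control Tex the next segment, TRBV2, had 12.8%.

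TRBV5 was chosen with these shares known, so they are a description. Intervals are exact Clopper-Pearson intervals of counting error. Since cells of a clone share their origin, intervals by cells are too narrow where clones are large. The difference between anti-CD137 and Ig control was -0.227 percentage points in Teff (95% interval -0.592 to 0.135; -0.453 with TRB contigs of at least 5 UMIs, -0.835 to -0.0738, which leaves out 0), -10.0 in Tpex (-10.8 to -9.20) and -18.6 in Tex (-19.8 to -17.4). Of all segments at 1% or more of a library, the share that differed at least 1.5-fold between treatments by cells was 0% in Teff, 31.6% in Tpex and 60.0% in Tex. The ratio of anti-CD137 to Ig control for TRBV5 was 0.286 in Tpex, the change of rank 2 by fold among 19 segments, and 0.328 in Tex, of rank 5 among 20.

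Counted once per TRB clonotype, TRBV5 differed little between treatments, and it was higher in Tex than in the other subsets under both. Its share of clonotypes in Teff was 3.80% with anti-CD137 (866 clonotypes, 95% interval 3.55% to 4.05%) and 4.06% with Ig control (787 clonotypes, 3.79% to 4.35%). In Tpex it was 4.14% with anti-CD137 (128 clonotypes, 3.46% to 4.90%) and 4.04% with Ig control (229 clonotypes, 3.54% to 4.59%). In Tex it was 6.77% with anti-CD137 (89 clonotypes, 5.47% to 8.26%) and 6.29% with Ig control (70 clonotypes, 4.94% to 7.89%). Anti-CD137 minus Ig control came to -0.263 points in Teff, 0.0941 in Tpex (-0.773 to 1.0) and 0.473 in Tex (-1.58 to 2.49), and all 3 intervals include 0.

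**Figure D1:**
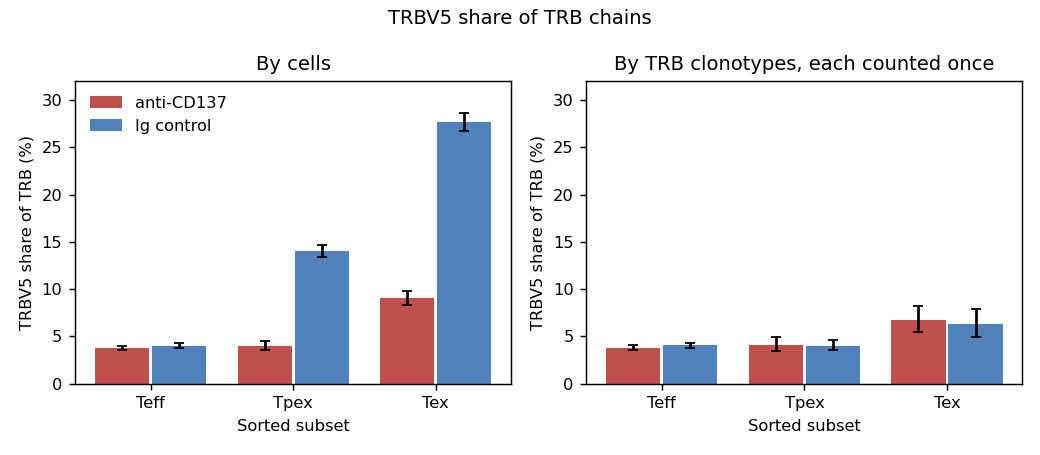
Share of TRB chains that used TRBV5 (y axis, percent) in each sorted subset (x axis), by cells on the left and with each TRB clonotype counted once on the right. Bars stand for 1 library each, anti-CD137 in red and Ig control in blue, with exact 95% intervals of counting error. By cells Tex reached 9.08% with anti-CD137 and 27.7% with Ig control, and by clonotypes 6.77% and 6.29%.

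The clonotype share in Tex exceeded that in Teff by 2.97 points with anti-CD137 (1.65 to 4.49) and by 2.24 points with Ig control (0.851 to 3.85). As ratios these were 1.78 and 1.55. Among all segments, 25.0% changed at least 1.5-fold by clonotypes between Tex and Teff in each treatment, 2 upward and 3 downward in each. By cells the same comparison moved 52.4% of segments with anti-CD137 and 57.9% with Ig control. The clonotype rank of TRBV5 was 6 in both Tex libraries, against 14 in anti-CD137 Teff and 13 in Ig control Teff.

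Over the 6 libraries the TRBV segment whose share by cells followed that of TRBV5 most closely was TRBV2, with a Pearson r of 0.89. TRBV2 reached 10.9% of Ig control Tpex and 12.8% of Ig control Tex cells, and 0.942% to 2.45% elsewhere. The next, TRBV19 and TRBV31, had an r of 0.16 and -0.02. By clonotypes the 3 most alike were TRBV20 at 0.90, TRBV19 at 0.82 and TRBV2 at 0.60. These values describe 6 points whose libraries are shared by both segments, and 20 segments were compared by cells and 19 by clonotypes.

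A few clones held most TRBV5 cells of the Ig control PD1+ subsets. In Tpex the 3 largest TRBV5 clonotypes held 15.4% of TRBV5 cells with anti-CD137 and 70.3% with Ig control, and in Tex 48.9% and 75.7%. In Teff the values were 1.65% with anti-CD137 and 1.21% with Ig control, since 96.7% and 96.1% of the TRBV5 clonotypes there were seen in 1 cell. Clonotypes of at least 20 cells held 59.8% of TRBV5 cells in anti-CD137 Tex and 91.3% in Ig control Tex, while the cells of other segments had 42.6% and 59.2% in such clonotypes. In Tpex no TRBV5 clonotype of the anti-CD137 cells in the table reached 20 cells (0 of 240 cells). With Ig control 77.2% of 1581 TRBV5 Tpex cells lay in such clonotypes. The other segments had 4.74% and 15.1% there. The cutoff of 20 cells was not scaled to these unlike cell numbers. Barcodes outside the cell table were left out, and among those of anti-CD137 Tpex the largest TRBV5 clonotype had 23 of 457 TRBV5 barcodes.

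**Figure D2:**
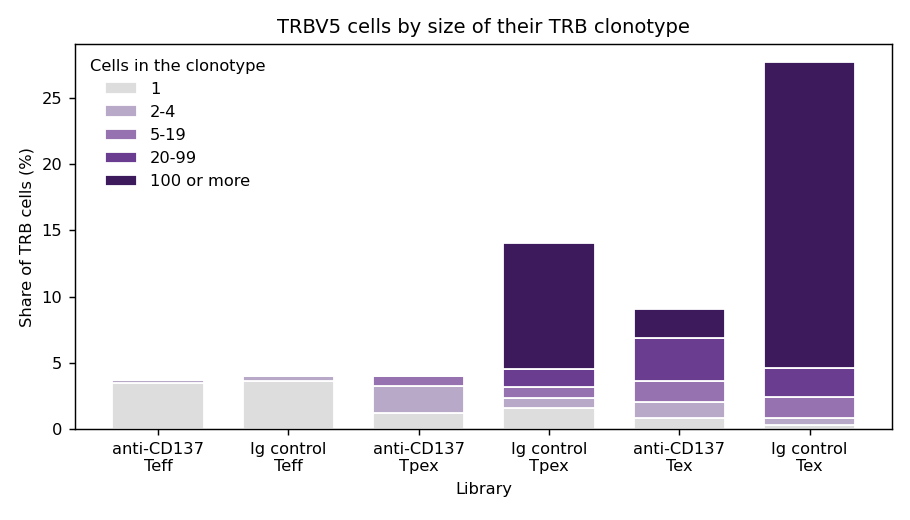
TRBV5 cells as a share of all TRB cells of a library (y axis, percent), stacked by the number of cells in their TRB clonotype, in the 6 libraries (x axis). Clonotypes of 100 or more cells made up 0% of all TRB cells in anti-CD137 and 9.51% in Ig control Tpex, and 2.21% in anti-CD137 and 23.0% in Ig control Tex.

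Left without its 5 largest TRBV5 clonotypes, each library had a TRBV5 share between 3.22% and 5.04%. Large clonotypes of other segments were kept, so these shares fall by construction, most where TRBV5 clones were largest. The values were 3.69% in anti-CD137 and 3.93% in Ig control Teff, 3.22% and 4.06% in Tpex, and 3.86% and 5.04% in Tex. With only the 3 largest left out, Tex kept 4.86% with anti-CD137 and 8.50% with Ig control. TRBV5 clonotypes were among the 10 largest TRB clonotypes of a library 1 time in anti-CD137 Tex, 4 times in Ig control Tex and 3 times in Ig control Tpex.

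The largest TRBV5 clones of anti-CD137 mice were smaller than those of Ig control mice, and none of CD137 clones a, b or c had a cell in an Ig control library. CD137 clone a had 14 Tpex cells and 129 Tex cells (2.21% of TRB cells), with TRAV9N-4 and TRAJ32 in 51 of 53 paired cells. A TRA was found in 37.2% of its Tex cells, against 71.5% of all TRBV5 cells of that library. CD137 clone b had 8 Teff, 8 Tpex and 76 Tex cells and paired with TRAV12D-3 and TRAJ12 in 71 of 72 cells. It was the only TRBV5 clonotype found in all 3 subsets of a treatment, with 0 such clonotypes in Ig control mice. All 8 of its Teff cells lay in cluster 6. CD137 clone c had 3 Tpex and 54 Tex cells, with TRAV13-4-DV7 and TRAJ58 in 51 of 53 paired cells.

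Ig clone a, the largest TRBV5 clonotype of the data, held 856 Ig control Tpex cells (7.60% of TRB cells) and 756 Ig control Tex cells (8.82%). Its TRA used TRAV12-3 and TRAJ26 in 1499 of 1502 cells with a TRA. Ig clone b was weighted to Tex, with 28 Tpex cells (0.249%) and 628 Tex cells (7.32%), and paired with TRAV16N and TRAJ37 in 614 of 615 cells. Ig clone c had 215 Tpex cells (1.91%) and 414 Tex cells (4.83%), all 562 paired cells with TRAV12D-3 and TRAJ11. Ig clone d had 40 Tpex and 177 Tex cells, all 211 paired cells with TRAV7-5 and TRAJ26. The same clones thus lay in both PD1+ gates at unlike ratios.

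None of Ig clones a, b or c was found in Ig control Teff, where 0 of 20596 cells allows a share of up to 0.0146%, and each had 0 cells in the anti-CD137 libraries. Within Ig clone a, 783 of the 856 Tpex cells lay in cluster 1 and 617 of the 756 Tex cells in cluster 3. The clone was therefore divided between clusters along the sort gates. Ig clone b had 26 of its 28 Tpex cells in cluster 1 and 595 of its 628 Tex cells in cluster 3.

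The largest TRBV5 clonotypes of the remaining libraries were small. In anti-CD137 Teff the 3 largest held 8, 4 and 3 cells, of which the 8 are CD137 clone b, and in Ig control Teff 4, 3 and 3 cells. In anti-CD137 Tpex they held 14, 13 and 10 cells, of which the 14 are CD137 clone a. Cells with the same TRB did not always share a TRA there: the 4 cells of the second largest anti-CD137 Teff clonotype carried 4 different TRAs. A TRB clonotype may thus hold more than 1 T cell clone. Only the TRA with the most UMIs of each cell was used, and other sources of unlike TRAs were not tested.

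TRBV5 cells of Ig control mice were shared between Tpex and Tex and almost not with Teff. Of the anti-CD137 Tex cells with TRBV5, 64.0% carried a TRB clonotype also found in Tpex of the same treatment, and of the Ig control ones 94.6%. For the other segments these shares were 65.6% and 76.1%. Of Tex TRBV5 cells, 17.5% (14.4% to 21.1%) carried a TRB also found in Teff with anti-CD137 and 0.379% (0.173% to 0.718%) with Ig control, while the other segments had 13.5% and 18.0%. Single clones weighed on these values. With anti-CD137, CD137 clone b by itself supplied 76 of the 93 shared cells. For the other segments of Ig control Tex, the share was 4.18% without the 2 largest shared clonotypes. Per clonotype, 32.6% of anti-CD137 and 51.4% of Ig control Tex TRBV5 clonotypes were also found in Tpex, against 34.7% and 48.3% of the others. Also found in Teff were 4 of 89 Tex TRBV5 clonotypes with anti-CD137 (4.49%) and 1 of 70 with Ig control (1.43%). The others had 8.73% and 5.37%, so per clonotype TRBV5 was lower under both treatments.

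TRBV5 clonotypes of the PD1+ subsets joined TRBJ2-3 more often than those of Teff and more often than other segments. TRBJ2-3 is a J segment of the second TRBJ cluster, at 41543223 to 41543271 on chromosome 6. In Teff it was used by 8.55% of TRBV5 clonotypes with anti-CD137 and 8.13% with Ig control, and by 8.38% and 8.55% of the other clonotypes. In Tpex it was used by 19.5% of TRBV5 clonotypes with anti-CD137 (13.1% to 27.5%) and 17.9% with Ig control (13.2% to 23.5%), and by 7.68% and 8.06% of the others. In Tex it was used by 19.1% with anti-CD137 (11.5% to 28.8%) and by 14 of 70 clonotypes with Ig control (11.4% to 31.3%), and by 6.20% and 7.01% of the others.

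**Figure D3:**
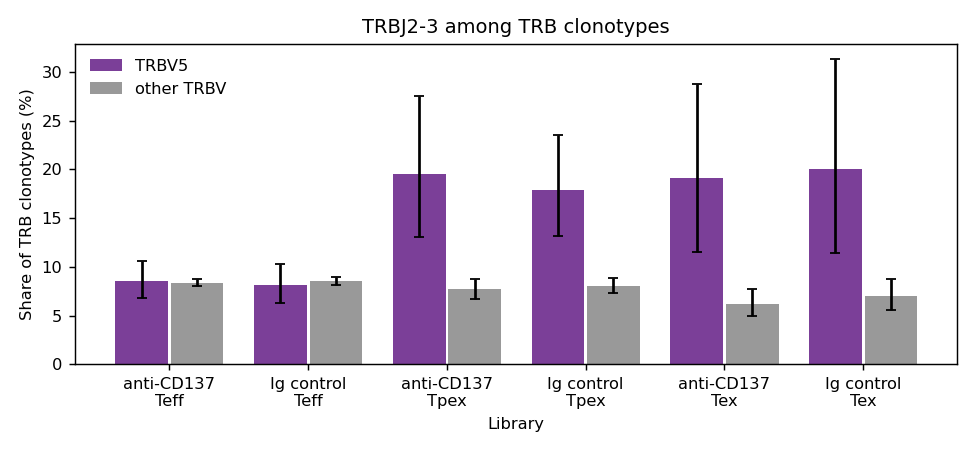
Share of TRB clonotypes joined to TRBJ2-3 (y axis, percent) in the 6 libraries (x axis), each clonotype counted once, for TRBV5 (purple) and all other TRBV segments (grey), with exact 95% intervals. TRBV5 lies near the others in Teff (8.55% and 8.13%) and at 17.9% or above in the 4 PD1+ libraries.

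Among TRBV segments with at least 30 clonotypes, TRBV5 had the highest TRBJ2-3 share in each of the 4 PD1+ libraries, level with TRBV17 (7 of 35 clonotypes) in Ig control Tex. In Teff it ranked 11 with anti-CD137 and 14 with Ig control, of 22 segments. Tpex and Tex of a treatment share clonotypes and are not separate evidence. With both PD1+ subsets of a treatment pooled, the share was 37 of 188 TRBV5 clonotypes with anti-CD137 (19.7%, 14.3% to 26.1%) and 43 of 263 with Ig control (16.3%, 12.1% to 21.4%), against 7.30% and 7.98% of the others. Split by size, TRBJ2-3 was used with anti-CD137 by 21.3% of TRBV5 clonotypes of at least 2 cells and 18.2% of those of 1 cell. With Ig control these were 26.0% (16.6% to 37.2%) and 12.4% (23 of 186, 8.00% to 18.0%). Other clonotypes of 1 cell had 6.95% with anti-CD137 and 8.09% with Ig control. The 1-cell TRBV5 interval took in that value with Ig control, and lay above it with anti-CD137 (11.1% to 27.2%). The TRBJ2-3 comparison was singled out after its values were seen.

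By cells the J segments followed the largest clones. In anti-CD137 Tex the leading J segments by cells were TRBJ1-5 at 24.7%, TRBJ1-4 at 15.7% and TRBJ2-7 at 13.6%, the segments of CD137 clones a, b and c. In Ig control Tpex, TRBJ2-3 was joined to TRBV5 in 64.0% of TRBV5 cells and in Ig control Tex in 36.8%, with TRBJ2-1 at 28.9% and TRBJ1-3 at 18.4% in Tex. In Teff, TRBJ2-7 led with 24.0% of TRBV5 cells with anti-CD137 and 20.8% with Ig control, ahead of TRBJ2-1 at 15.5% and 16.7%. By clonotypes, TRBJ1-2 had a lower share with TRBV5 than with the others in all 6 libraries. It had 2.31% and 3.30% in Teff, with anti-CD137 and Ig control, against 5.35% and 5.59% of the others. In the PD1+ libraries it stayed between 1.43% and 2.62%, against 5.66% to 6.92%. Counts there were low, with 3 of 128 in anti-CD137 Tpex, 6 of 229 in Ig control Tpex, 2 of 89 in anti-CD137 Tex and 1 of 70 in Ig control Tex. The TRBV5 interval took in the value of the others in anti-CD137 Tpex (0.486% to 6.70%), anti-CD137 Tex (0.273% to 7.88%) and Ig control Tex (0.0362% to 7.70%). The TRBJ1-2 comparison too was chosen after its values were seen.

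The TRA partners of TRBV5 also differed from those of the other segments. Each TRB clonotype was counted once with its most frequent TRA. The TRAV16 family, whose copies TRAV16, TRAV16N and TRAV16D-DV11 are close in sequence, was the partner of 11.4% of TRBV5 clonotypes in anti-CD137 Teff (9.15% to 13.9%) and 10.7% in Ig control Teff (8.48% to 13.4%), against 6.99% and 7.06% of the others. In Tex it was the partner of 13 of 81 with anti-CD137 (8.83% to 25.9%) and 17 of 69 with Ig control (24.6%, 15.1% to 36.5%), against 9.41% and 8.67%. In Tpex it had 3.64% with anti-CD137 (4 of 110) and 17.0% with Ig control, against 6.77% and 10.5%, so anti-CD137 Tpex went the other way. Among TRBV segments with at least 30 paired clonotypes, TRBV5 ranked 2 of 22 in anti-CD137 Teff and 3 of 22 in Ig control Teff. In Tpex it ranked 19 of 20 with anti-CD137 and 1 of 20 with Ig control, and in Tex 2 of 16 and 1 of 14. Other single segments thus lay above it in both Teff libraries and both anti-CD137 PD1+ libraries.

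TRAJ50, on chromosome 14 at 54167590 to 54167652, was the J segment of the TRA in 7.41% of TRBV5 clonotypes of anti-CD137 Tex (6 of 81) and 13.0% of Ig control Tex (9 of 69), against 1.28% and 1.71% of the others. In Teff it had 2.60% with anti-CD137 and 4.39% with Ig control, against 1.70% and 1.67%. It was above the others in Tpex as well, at 2.73% with anti-CD137 (3 of 110, 0.566% to 7.76%) and 8 of 200 with Ig control (1.74% to 7.73%), against 1.84% and 1.97%. For TRAV16 family chains joined to TRAJ50 the ratio of TRBV5 to the others was higher than for TRAJ50 as a whole in all 6 libraries, while the difference in percentage points was smaller in 4 of them. These chains were the partner of 7 of 731 TRBV5 clonotypes in anti-CD137 Teff (0.958%, 0.386% to 1.96%) and 11 of 661 in Ig control Teff (1.66%, 0.834% to 2.96%), against 0.183% and 0.119% of the others. In Tpex the counts were 2 of 110 with anti-CD137 (1.82%) and 5 of 200 with Ig control (2.50%), against 0.391% and 0.281%. In Tex they were 4 of 81 with anti-CD137 (4.94%, 1.36% to 12.2%) and 6 of 69 with Ig control (8.70%, 3.26% to 18.0%), against 0.0913% (1 of 1095) and 0.403% (4 of 992). For this combination TRBV5 ranked 2 of 22 segments in Ig control Teff and 3 of 20 in anti-CD137 Tpex, and first in the other libraries.

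**Figure D4:**
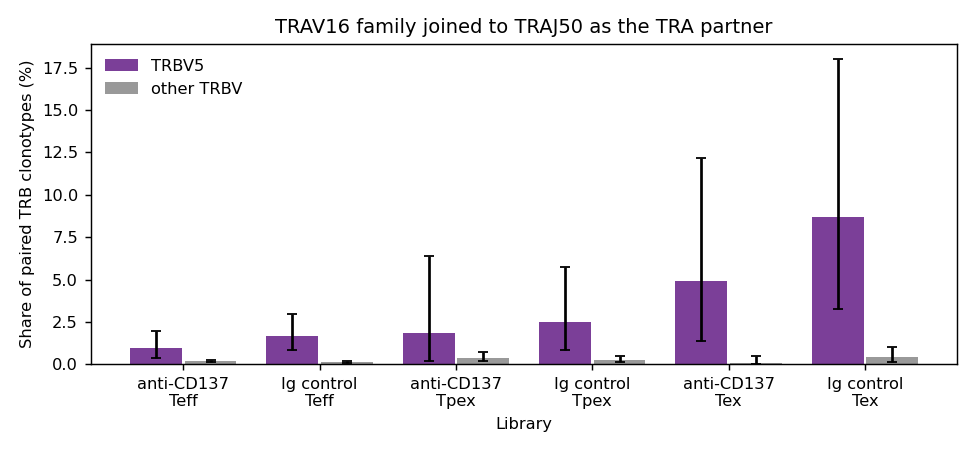
Share of paired TRB clonotypes whose most frequent TRA joined a TRAV16 family segment to TRAJ50 (y axis, percent) in the 6 libraries (x axis), for TRBV5 (purple) and all other TRBV segments (grey), with exact 95% intervals. TRBV5 lies above the others in all 6 libraries, from 0.958% against 0.183% in anti-CD137 Teff to 8.70% against 0.403% in Ig control Tex. The intervals of TRBV5 and the others overlap in anti-CD137 Tpex and in no other library.

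The TRB chains of this pairing differed between Teff and the PD1+ subsets. In Teff, 1 of the 18 TRBV5 clonotypes seen with a TRAV16 family chain and TRAJ50 used TRBJ2-1, and in Tpex and Tex together 10 of 14 did (71.4%, 41.9% to 91.6%). Among all TRBV5 clonotypes TRBJ2-1 had 15.9% in Teff and 15.2% in Tpex and Tex. All 18 Teff clonotypes of this kind were seen in 1 cell, while the PD1+ ones reached 3 cells in anti-CD137 Tex, 7 in Ig control Tpex and 12 in Ig control Tex. The TRAV16, TRAJ50 and TRBJ2-1 combination was singled out after its values were seen.

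The TRBJ2-1 set printed above belongs to this pairing. Its 4 nucleotide sequences were found in 4 anti-CD137 Tex cells, 1 Ig control Tpex cell and 11 Ig control Tex cells, and in 0 Teff cells. All 11 cells of the set with a TRA had a TRAV16 family chain joined to TRAJ50. Sequence 3 was the anti-CD137 one (4 cells), and sequences 1, 2 and 4 came from Ig control mice (2, 9 and 1 cells). Their TRA CDR3s, on chromosome 14, were 45 bases long and differed among themselves only in bases 13 to 15, printed in capitals.
TRA 1, Ig control Tpex: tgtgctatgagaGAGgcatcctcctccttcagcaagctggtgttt
TRA 2, Ig control Tex: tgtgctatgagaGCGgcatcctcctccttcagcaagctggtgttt
TRA 3, anti-CD137 Tex and Ig control Tex: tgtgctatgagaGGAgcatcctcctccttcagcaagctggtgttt
TRA 4, Ig control Tex: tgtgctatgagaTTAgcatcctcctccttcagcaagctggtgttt

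TRA 3 occurred in both treatments with different TRB nucleotide sequences of the same protein CDR3, 4 cells in all, with TRAV16N named in anti-CD137 and TRAV16 in Ig control. The copies of the family share most of their bases, so the assignment between copies is uncertain. The TRBJ2-3 set was found in 1 anti-CD137 Tpex, 3 anti-CD137 Tex, 1 Ig control Teff and 6 Ig control Tpex cells. Of its 10 cells with a TRA, 9 had a TRAV7 family chain, with 8 different TRA CDR3s and 6 TRAJ segments over the set. Both sets were chosen as the TRBV5 protein CDR3s of the PD1+ subsets with the most nucleotide sequences.

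Recurrence of this kind was more frequent for TRBV5 than for other segments in the PD1+ subsets of both treatments pooled, and not in Teff. Over Tpex and Tex of both treatments, 19 of 422 TRBV5 protein CDR3s came from at least 2 nucleotide sequences (4.50%, 2.73% to 6.94%), against 137 of 9552 of the others (1.43%, 1.21% to 1.69%). In Teff the shares were 2.95% for TRBV5 (2.18% to 3.91%) and 4.10% for the others (3.91% to 4.31%). TRBV5 had the highest PD1+ share of 21 segments with at least 50 protein CDR3s, ahead of TRBV3 at 2.41%. Within treatments it had rank 5 of 20 with anti-CD137, where TRBV12-2 led at 3.24%, and rank 1 of 19 with Ig control. The share in anti-CD137 PD1+ cells alone was 2.19% (4 of 183, 0.599% to 5.50%), with an interval that takes in the 1.24% of the others, and in Ig control it was 4.84% (12 of 248, 2.52% to 8.30%) against 0.931%. Leaving out nucleotide sequences 1 base from one at least 10 times larger left the anti-CD137 share at 2.19% and moved the Ig control share to 4.03%.

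A further group of clones shared TRAV7-5 with TRAJ26, the segments of Ig clone d, and was picked out after its values were seen. The group had 0 TRBV5 paired clonotypes in anti-CD137 Teff (up to 0.493% by the exact interval), Ig control Teff (0.544%) and anti-CD137 Tpex (2.56%), where the other segments had 0.0742%, 0.110% and 0.293%. It had 4 of 206 in Ig control Tpex, 1 of 93 in anti-CD137 Tex and 4 of 78 in Ig control Tex (5.13%, 1.41% to 12.6%). The other segments had 0.0388% in Ig control Tpex, 0.327% in anti-CD137 Tex and 0.191% in Ig control Tex. It consisted of 6 clones, 4 of which used TRBJ2-3 and 5 of which had a TRB CDR3 of 42 bases. Ig clone d held 211 of its paired cells, and the other 5 clones held 1 to 8 cells each.

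By cells, counted over TRBV5 cells with a TRA, the TRA partners were those of the large clones. In anti-CD137 Tex (379 such cells) the leading TRAV segments were TRAV12D-3 at 17.7%, TRAV13-4-DV7 at 13.2% and TRAV9N-4 at 12.7%. Their order did not follow clone size, since CD137 clone a, the clone with TRAV9N-4, had a TRA in 37.2% of its Tex cells. In Ig control Tpex, TRAV12-3 was paired in 56.3% of paired TRBV5 cells and TRAJ26 in 60.8%, and in Ig control Tex they had 32.9% and 42.1%. In Teff, TRAV12D-3 led with 6.04% with anti-CD137, and TRAV12-2 with 6.40% with Ig control. The leading TRAJ there were TRAJ22 with anti-CD137 (7.22%) and TRAJ26 with Ig control (6.26%).

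CDR3s with TRBV5 were longer than those of other segments in all 6 libraries. By clonotypes the mean was 43.7 ± 4.10 bases in anti-CD137 and 43.5 ± 4.01 in Ig control Teff (SD over 866 and 787 clonotypes), against 41.7 bases in the others of each. In Tpex it was 44.1 ± 4.20 with anti-CD137 and 43.5 ± 4.31 with Ig control, against 41.9 and 41.5. In Tex it was 43.9 ± 3.77 with anti-CD137 and 42.9 ± 4.22 with Ig control, against 41.6 and 41.5. TRBV5 had the longest mean in anti-CD137 Tex and the second longest in the other 5 libraries, behind TRBV2. CDR3s of 39 bases or fewer made up 11.2% to 22.0% of TRBV5 clonotypes and 34.3% to 36.3% of the others.

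By cells the lengths narrowed onto those of the large clones. A length of 42 bases was found in 51.9% of TRBV5 cells of anti-CD137 Tex and 60.1% of Ig control Tex, and in 37.1% and 80.9% of those in Tpex. In Teff it was found in 27.1% of TRBV5 cells under either treatment. Ig clones a, c and d and CD137 clones a and b have CDR3s of 42 bases.

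TRBV5 clonotypes kept on average 14.9 to 15.4 of the 17 germline bases, with 9.83 to 10.5 bases between the V and J matches. The glutamine at codon 5 was present in 62.6% of clonotypes in each Teff library. In Tpex it was present in 76.6% with anti-CD137 (68.3% to 83.6%) and 63.8% with Ig control, and in Tex in 74.2% with anti-CD137 (63.8% to 82.9%) and 67.1% with Ig control (54.9% to 77.9%). By cells, glutamine at codon 5 was present in 78.3% of anti-CD137 and 16.3% of Ig control Tpex cells with TRBV5, and in 65.5% and 37.5% in Tex. Proline took its place in 9.58% of anti-CD137 and 74.5% of Ig control Tpex cells; in Tex these shares were 6.98% and 54.1%. Ig clones a and c keep 13 germline bases and carry that proline, as their sequences show.

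TRBV5 was rarely shared between treatments. Of 2082 TRBV5 nucleotide CDR3s, 11 (0.528%) were found in both, against 479 of 49432 (0.969%) in the other segments. None of the 11 had a TRA CDR3 in common between treatments. The 5 with the most cells held 3 to 22 cells, and the largest had 1 Tpex and 1 Tex cell with anti-CD137 and 17 Tpex and 3 Tex cells with Ig control. Cell barcodes also recurred between libraries, with 148 to 941 in common in each of 15 pairs of libraries, and 2 of them carried the same TRB, neither with TRBV5.

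Counted by cells, TRBV5 cells lay in the same clusters as other cells of their library, in near proportions. The widest gap, in cluster 0 of anti-CD137 Teff, was 5.61 points (2.25 to 8.98). In Teff, cluster 0 held 48.1% of TRBV5 cells with anti-CD137 and 46.7% with Ig control, against 42.5% and 46.9% of the other TRB cells, and cluster 2 held 40.9% and 44.1%, against 45.9% and 42.9%. In Tpex, cluster 1 held 80.4% of TRBV5 cells with anti-CD137 and 89.7% with Ig control, against 83.4% and 87.4%, and cluster 5 held a further 12.9% with anti-CD137, against 13.4%. In Tex the treatments had TRBV5 cells in different clusters, as the other cells did. Cluster 4 held 73.2% of TRBV5 cells with anti-CD137 (69.2% to 76.9%) and 10.2% with Ig control (9.01% to 11.5%), against 77.8% and 8.18% of other cells. Cluster 3 held 25.8% and 88.0%, against 21.1% and 88.9%. With each clonotype counted once per cluster some gaps were wider. Cluster 1 then held 74.6% in anti-CD137 and 71.6% in Ig control Tpex, against 81.1% and 81.6% of the others. In Ig control Tex cluster 3 held 64.5%, against 73.4%, while in anti-CD137 Tex cluster 4 held 63.6%, against 63.9%.

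The cluster 4 share of single TRBV5 clones kept the same order between treatments. Among the 5 largest clones of anti-CD137 Tex it ran between 63.6% and 76.7%, and among the 5 largest of Ig control Tex between 1.43% and 16.1%. Within Ig control, Ig clones a (122 of 756, 16.1%) and c (14.5%, 11.2% to 18.3%) had more cells in cluster 4 than Ig clone b (4.62%, 3.11% to 6.56%). These are cells within 1 library, and no value here separates treatment from library.

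**Figure D5:**
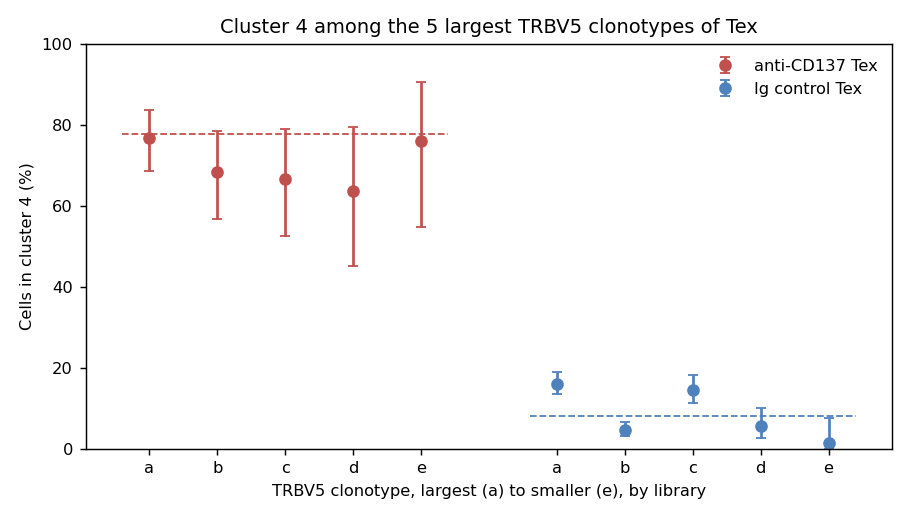
Share of cells in cluster 4 (y axis, percent) for the 5 largest TRBV5 clonotypes of each Tex library (x axis, a for the largest), anti-CD137 in red and Ig control in blue, with exact 95% intervals. Dashed lines mark the other TRB cells of the library, at 77.8% with anti-CD137 and 8.18% with Ig control. All 5 anti-CD137 clones lie at 63.6% or above and all 5 Ig control clones at 16.1% or below.

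TRBV5 chains were read with fewer UMIs than other TRB chains. The median per cell in Teff was 7 UMIs with TRBV5 and 9 with other segments under each treatment. In Tpex it was 5 with anti-CD137 and 11 with Ig control, against 6 and 15 with the others, and in Tex 9 and 14, against 12 and 19. The mean ratio of TRBV5 to other chains lay between 0.662 and 0.810 over the libraries, and TRBV5 was among the 5 lowest of 19 to 21 segments in each. The TRA chains of TRBV5 cells in Teff averaged 4.13 UMIs with anti-CD137 and 4.23 with Ig control, against 4.27 and 4.21 in the other cells. In Tex they averaged 4.89 and 6.76 UMIs, against 5.01 and 7.46.

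The libraries differed in depth. Median UMIs of all genes per cell ranged between 1950 in anti-CD137 Tpex and 5619 in Ig control Tex, and TRBV5 cells were near them, at 2097 and 5254. The median ribosomal share of UMIs in TRBV5 cells was 23.1% in Ig control Tpex, against 25.5% in the other TRB cells there, and the mitochondrial medians of TRBV5 cells were 1.01% to 2.27%, against 1.0% to 2.28%. The authors' S phase call was given to 20.4% of TRBV5 cells in anti-CD137 Tex and 19.8% in Ig control Tex, against 15.7% and 21.3% of the others, with 16.3% to 39.4% among the 5 largest TRBV5 clones with anti-CD137 and 11.9% to 48.6% with Ig control. These calls were not set to equal depth, and no cycling is read from them. A TRB was found in 45.3% of anti-CD137 Tpex cells, 59.0% of anti-CD137 Tex cells and 79.5% to 87.5% of cells in the other 4 libraries. In anti-CD137 Tpex, 38 of 95 other clonotypes with at least 5 paired cells had no TRA in a majority of them, against 0 of 3 TRBV5 clonotypes. For the other segments the counts in Teff were 2 of 41 with anti-CD137 and 2 of 16 with Ig control. They were 0 of 201 in Ig control Tpex, 1 of 174 in anti-CD137 Tex and 0 of 184 in Ig control Tex. The part of these gaps between libraries in the treatment differences was not tested.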

How the data were processed

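Each of the 6 populations gave a gene expression and a TCR library (Chromium 5′ v1.1 kit, per the labels' protocols). Cell Ranger 3.0.2 and Seurat 4.0.0, with build mm10, appear in the submitters' processing notes; other settings are not given in the sources used here. The deposited cell table holds counts of UMIs and genes, the percent of mitochondrial and ribosomal UMIs, cell cycle scores and a cluster number per cell, which the authors computed, per the file headers. The deposited TCR table holds counts of UMIs and reads for 192524 contigs, with chain, segments and CDR3, of which 8076 are TRBV5. All columns of per-sample values were mapped.

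Each contig was matched to its cell through library and barcode. The TRB and TRA with the most UMIs were kept (ties by reads, then name). Barcodes outside the cell table were left out, and no doublet caller was run. Segments at 1% or more of a library in either group were compared and called at 1.5-fold. Germline ends came from GENCODE M21 transcripts (GRCm38) and segment names from the deposited tables. Shares have exact Clopper-Pearson 95% intervals and differences Newcombe intervals. With 1 library per group no p-value is given. The limit for 0 of 20596 Ig control Teff cells rests on 3 counts. Other limits for a share of 0 are upper ends of exact intervals. The cell cycle scores were not compared.

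TRBV5 and the lists were chosen with earlier results of these data known. The clonotypes named are the 3 with the most cells in each library, up to 3 in all subsets of a treatment, and the 5 largest in both treatments; named partners and J segments were among the 3 most frequent of a library, and named clusters held at least 5% of its TRBV5 cells. Cluster 6, named for CD137 clone b, is an exception, with 3.20% of TRBV5 cells of anti-CD137 Teff. Other exceptions are named as chosen after their values were seen. Alternatives varied the clonotype definition, the cells and chains counted, and the clones left out. The segment rule and intervals were tried on simulated independent cells with Teff shares and sizes. That simulation held no clones, so it does not cover the clonal Tpex and Tex libraries. Python 3.11.15, numpy 2.4.6, pandas 2.3.3, scipy 1.17.1 and matplotlib 3.10.9 were used.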

Additional observations from a re-analysis of the deposited data

Results flagged for a closer look

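TRBV5 chains were also found in barcodes that have a TRB contig but are not in the deposited cell table, data the comparisons did not use. TRBV5 took 3.41% of these barcodes in anti-CD137 Teff (34 of 997) and 3.07% in Ig control Teff (20 of 651). It took 3.82% in anti-CD137 Tpex (457 of 11950) and 13.8% in Ig control Tpex (254 of 1838), and 7.74% in anti-CD137 Tex (229 of 2960) and 17.0% in Ig control Tex (47 of 276). From low to high, the libraries stood in the same order as by cells in the table, except that both Teff libraries, whose intervals overlap, changed places. In Tex the shares outside the table were lower than inside it. Their intervals were 6.80% to 8.76% with anti-CD137, against 9.08% inside, and 12.8% to 22.0% with Ig control, against 27.7%. In Teff and Tpex the intervals took in the share inside the table. Of the TRBV5 barcodes outside the table, 7.66% in anti-CD137 Tpex and 78.0% in Ig control Tpex carried the TRB of the library's 3 largest TRBV5 clonotypes, and 48.5% and 76.6% did so in Tex.

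A second TRB was found in 15.4% of TRBV5 cells in anti-CD137 Tpex and 2.91% in Ig control Tpex, against 17.9% and 6.99% of other cells. In Tex the shares were 0.755% and 1.01%, against 4.30% and 3.58%. A TRBV5 chain was the second TRB, below the top one in UMIs, in 0.274% to 0.870% of TRB cells of a library.

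A pair of recurring combinations was noticed after the values were seen. A TRBV5 and TRBJ2-3 chain (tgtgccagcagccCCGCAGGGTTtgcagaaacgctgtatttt) was found together with the same TRBV26 and TRBJ2-5 chain in 21 Ig control cells, 9 in Tpex and 12 in Tex, and was the top TRB in 4. All 21 carried the same pair TRAV12-3 and TRAJ4. The chain of Ig clone a was also the second TRB in 22 cells (8 in Ig control Tpex, 14 in Ig control Tex) whose top TRB was another TRBV5 and TRBJ2-3 chain of 102 cells (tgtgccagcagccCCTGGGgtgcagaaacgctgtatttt), and all 22 carried TRAV9N-2 and TRAJ24. Whether these barcodes hold a cell with 2 TRB chains or more than 1 cell was not tested.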

How the results depend on the processing

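Over 61 alternative values, 42 stayed inside the interval of the reported value, 16 moved outside it with the same sign, and 3 changed sign. Differences are in percentage points. Counting each TRB clonotype once turned anti-CD137 minus Ig control to 0.0941 in Tpex and 0.473 in Tex, both with intervals that include 0, and Tex minus Tpex was 2.63 with anti-CD137 and 2.25 with Ig control. Without the 10 largest TRB clonotypes of each library, anti-CD137 minus Ig control was -1.05 in Tpex and 0.863 in Tex (-0.265 to 2.0), and Tex minus Tpex with Ig control was 2.68. Without the single largest they were -11.4, -21.2 and 15.3. Without the 3 largest TRBV5 clonotypes, an alternative chosen after seeing the data, the treatment differences were -1.22 in Tpex and -3.64 in Tex. These alternatives leave out or reweight large clones by construction. With cells that have a TRA, Tex minus Tpex with anti-CD137 was 4.05.

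Among TRBV5 cells of Tex with a TRA, 84.2% with anti-CD137 and 98.2% with Ig control lay in clonotypes of at least 2 cells by both chains. By the TRB alone the shares were 87.6% and 98.5% of the same cells, an alternative added after seeing the data, and 90.9% and 98.8% of all TRBV5 cells of Tex. In cluster 4 the share was 63.6% and 19.6% with each clonotype counted once per cluster, and 5.38% with Ig control without its 3 largest TRBV5 clonotypes. The CDR3 excess in anti-CD137 Tex was 0.466 bases by cells, against 2.31 by clonotypes. The TRBJ2-3 share of the pooled PD1+ TRBV5 clonotypes stayed between 18.9% and 20.1% with anti-CD137 and between 14.3% and 16.3% with Ig control. Between treatments no paired analysis was possible because each group is 1 library with no replicate number. The subsets of a treatment form 2 pairs over the treatments, and no test of subset differences over them was run. Depth was lowest in anti-CD137 Tpex, and its part in the rare clonotypes and shared TRBs seen there was not tested.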
